A study of Mus musculus with 106 samples.

Results

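The 9 genes described here encode transcription factors of the primitive streak and of the mesoderm that leaves it: Mesp1, Mesp2, Mixl1, Eomes, Lhx1, Msgn1, Tbx6, Evx1 and Nkx1-2. They were chosen by gene symbol, all 9 had a probe set on the array, and they stand among 18193 genes with a probe set of 1 symbol. The study measured single mouse cells of strain C57BL/6, 1 cell per Affymetrix array, in 11 groups along the path from the epiblast to primordial germ cells (PGCs), the founders of eggs and sperm.

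The wild-type line of groups began with 8 posterior epiblast cells from pre-streak (PS) embryos, chosen as Oct4+ and T+. It went on with PGC precursors chosen as Blimp1+ and Oct4+, 7 from the Early/Mid-Streak (E/MS) stage and 17 from the Late-Streak/0-Bud (LS/0B) stage. PGCs, chosen as Blimp1+ and stella+, came from the Early/Mid-Bud (E/MB) stage, the early head fold (EHF) stage and embryonic day 8.25 (E8.25), with 8 cells each. Wild-type cells outside this line were 10 posterior mesoderm cells from the base of the allantois at E/MB (Blimp1-, Oct4+, Hoxb1+) and 8 Blimp1+, Oct4+, Hoxb1+ cells. Of those 8, 4 were E/MB cells, and the other 4 carry E/MB in their title but EHF in their description and source, so they are called EHF here. Blimp1 (-/-) cells, called knockout cells, were chosen by the transcript of the null Blimp1 allele and Oct4, 20 at LS/0B and 12 at E/MB. Blimp1, Oct4 and stella are the products of Prdm1, Pou5f1 and Dppa3. No member was used to choose cells.

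In the mouse embryo the primitive streak forms in the posterior epiblast under Nodal, Wnt and BMP signals, and cells that pass through it become mesoderm or endoderm. Eomes, a T-box factor, and the homeodomain factors Mixl1 and Lhx1 act early in the streak, Mesp1 and Mesp2 mark nascent mesoderm, and Msgn1 and Tbx6 serve the presomitic mesoderm. Evx1 is a posterior streak homeodomain factor, and Nkx1-2 marks the caudal epiblast and the tissue beside the later streak. PGC precursors arise in the posterior epiblast next to these cells, and Blimp1 is a transcriptional repressor needed for PGCs to form.

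Mesp1 and Mesp2 lie head to head on mouse chromosome 7, with 17136 bases between their annotated starts, and were detected in 87 and 15 of all cells, so their upstream sequences are shown together with those of Eomes and Nkx1-2, whose patterns ran opposite. Each run holds the 250 bases before the start that RefSeq's promoter table uses on GRCm38.p6; for Eomes that start lies a few bases inside the gene's annotated span, which begins at 118478186, while for the other genes shown it is the 5′ end of the span. Runs are read 5′ to 3′ on the gene's own strand. Mesp1 covers chr7:79793591-79793840 on the minus strand, Mesp2 chr7:79810477-79810726 on the plus strand, Eomes chr9:118477939-118478188 on the plus strand and Nkx1-2 chr7:132599638-132599887 on the minus strand. Capitals mark matches on either strand to the T-box core ACACCT or the TCF/LEF core CTTTGA, which do not overlap each other here; both cores were chosen after the sequences were seen.
Mesp1: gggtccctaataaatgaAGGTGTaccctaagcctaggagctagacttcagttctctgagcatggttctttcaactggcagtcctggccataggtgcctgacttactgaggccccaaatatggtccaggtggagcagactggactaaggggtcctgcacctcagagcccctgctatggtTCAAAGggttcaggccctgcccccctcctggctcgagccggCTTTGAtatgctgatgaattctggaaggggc
Mesp2: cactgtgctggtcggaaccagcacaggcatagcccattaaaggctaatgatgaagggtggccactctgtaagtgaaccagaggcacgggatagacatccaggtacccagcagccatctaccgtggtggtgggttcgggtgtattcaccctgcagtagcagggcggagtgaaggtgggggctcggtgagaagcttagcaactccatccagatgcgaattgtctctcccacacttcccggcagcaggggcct
Eomes: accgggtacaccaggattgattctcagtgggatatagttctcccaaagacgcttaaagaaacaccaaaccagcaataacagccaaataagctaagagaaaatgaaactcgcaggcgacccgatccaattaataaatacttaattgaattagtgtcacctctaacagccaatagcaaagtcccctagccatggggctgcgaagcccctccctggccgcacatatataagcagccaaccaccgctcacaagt
Nkx1-2: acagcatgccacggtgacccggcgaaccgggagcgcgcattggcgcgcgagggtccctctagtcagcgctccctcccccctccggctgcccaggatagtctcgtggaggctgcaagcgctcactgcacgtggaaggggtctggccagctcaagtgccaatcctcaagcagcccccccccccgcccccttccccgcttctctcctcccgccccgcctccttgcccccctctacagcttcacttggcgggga

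The Mesp1 run held the T-box core on its minus strand, 233 to 228 bases before the start. It also held the TCF/LEF core 72 to 67 bases before the start on the minus strand and 31 to 26 bases before it on the plus strand. The runs of Mesp2, Eomes and Nkx1-2 held neither core. Of 32817 windows of the same length, 11.8% held the T-box core and 13.8% the TCF/LEF core. Of the 8 members with a window, 2 held the T-box core (Mesp1 and Evx1) and 2 the TCF/LEF core (Mesp1 and Msgn1). A match is a description of letters, not a binding site.

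Values are array signals on a linear scale. In each cell the 95th percentile of 126 background probe sets (olfactory, vomeronasal and taste receptors and hair keratin-associated genes) served as a limit, between 82.8 and 166, and genes above it are called detected. For means and differences, signals under a floor of 70.2 were raised to it before taking log2, so 6.13 is the lowest possible log2 value. A difference of at least 1 log2 unit is called higher or lower as a statement of size. No label names the embryo or litter of a cell, so a group is a single sample and nothing was tested; SDs and exact (Clopper-Pearson) 95% intervals describe the spread and counting error over cells. Signals were compared for 1 gene between groups, never between genes.

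Between 7901 and 12655 probe sets were detected per cell. The probe sets of the array's hybridisation controls averaged 10.77 to 11.7 (log2 signal) in posterior mesoderm cells and 9.05 to 10.75 in all other cells, so the mesoderm arrays stood apart. Xist, the X-inactivation RNA, was detected in all 8 PS epiblast cells, 8 of 17 LS/0B precursors, 5 of 8 EHF PGCs and 1 cell of each Blimp1+ Hoxb1+ group, and in 0 cells elsewhere. The germ cell markers Prdm14, Tfap2c, Dnd1 and Kit had a mean log2 signal of 10.05 to 11.35 per cell in E/MB PGCs and 6.13 to 7.38 in posterior mesoderm. PS epiblast had 6.13 to 7.54 and E/MS precursors 6.13 to 8.14, so the E/MS precursors were low in these markers. LS/0B precursors were mixed, from 6.28 to 11.08, as were LS/0B knockout (6.13 to 9.71) and E/MB knockout cells (6.13 to 9.17). Lists of visceral endoderm, trophoblast, and blood and endothelium markers were mostly low in mean but not silent. The 5 allantois and posterior mesoderm markers had higher means in several groups. Their mean log2 signal per cell was 6.42 to 8.8 in LS/0B precursors and 6.51 to 7.34 in E/MB PGCs. It was 6.7 to 9.13 in LS/0B knockout, 8.56 to 9.29 in EHF Blimp1+ Hoxb1+ and 6.86 to 8.95 in posterior mesoderm cells. In LS/0B precursors Isl1 was detected in 14 of 17 and Hand1 in 16 of 17. The 6 visceral endoderm markers had a mean log2 signal of 6.13 to 7.09 per cell; Hnf4a was detected in 1 posterior mesoderm cell, Ttr in 4 of 17 LS/0B precursors, and Apoa1 in 10 of 20 LS/0B knockout, 10 of 12 E/MB knockout and 4 of 4 EHF Blimp1+ Hoxb1+ cells. The 4 measured trophoblast markers averaged 6.18 to 7.95; Elf5 was detected in 0 cells, Plac1 in 9 of 12 E/MB knockout cells, 5 of 10 posterior mesoderm cells and 4 of 4 cells of each Blimp1+ Hoxb1+ group, and Ascl2 in 10 of 10 posterior mesoderm cells. The 7 blood and endothelium markers averaged 6.13 to 8.39, and Hba-x, Hbb-bh1 and Gata1 were detected in 0 cells. Etv2 was detected in 6 of 7 E/MS and 8 of 17 LS/0B precursors, 14 of 20 LS/0B knockout and 8 of 10 mesoderm cells. Kdr was detected in 4 of 7, 6 of 17, 9 of 20 and 2 of 10 of them, in the same order. These examples were chosen after their values were seen, and their part in the results was not tested. Prdm1 itself was detected in 12 of 20 LS/0B and 9 of 12 E/MB knockout cells; since the null allele is transcribed, this does not check the genotype.

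**Figure D1:**
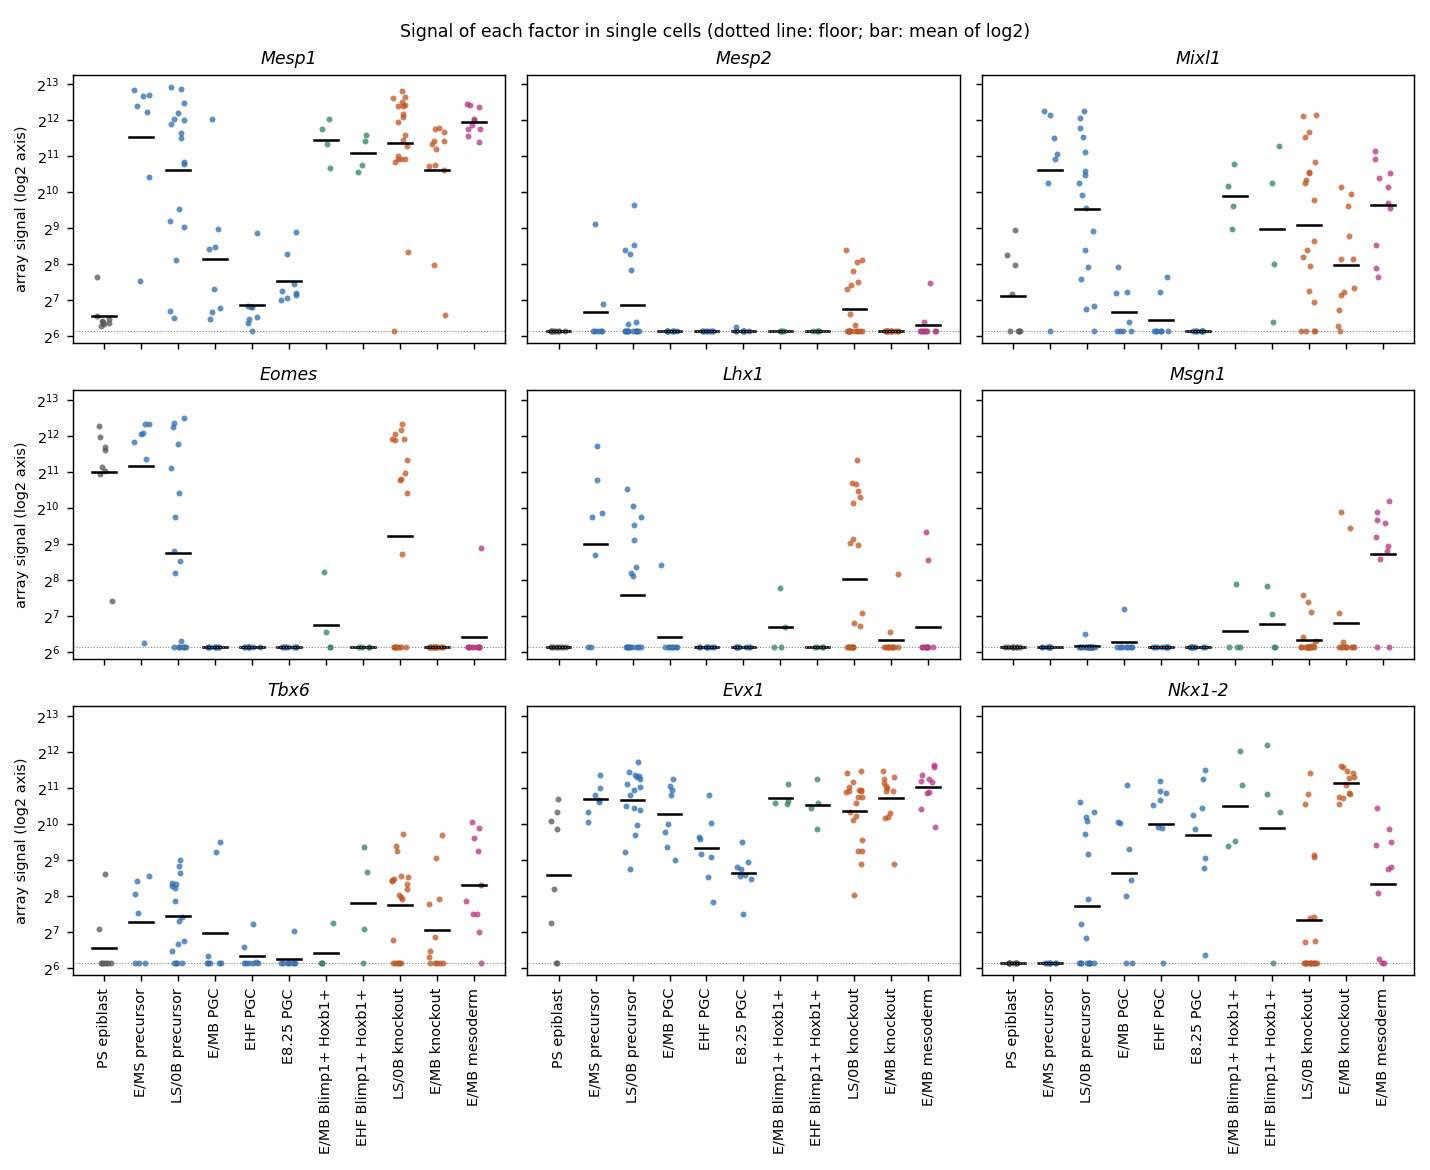
Array signal of each of the 9 genes (y axis, log2 scale, values under the floor drawn at the floor) in every cell, by group (x axis), with 1 point per cell and a bar at the mean of log2. Eomes sits at the floor in all PGC cells, Evx1 lies above the floor in nearly all cells, and Msgn1 is high mainly in the 10 posterior mesoderm cells.

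Eomes, which is needed for mesoderm to leave the streak and for endoderm to form, was highest at the start of the lineage and was detected in no PGC. In PS epiblast its signal ran from 171 to 4916 (median 2688), and 8 of 8 cells were detected. In E/MS precursors it ran from 76.4 to 5122 (median 4263), with 6 of 7 cells detected. LS/0B precursors spread from 3.07 to 5750 (median 368), and 10 of 17 were detected. The 10 detected cells read 295 or more and the others 79 or less, as the heat map of streak-stage cells shows.

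In PGCs the highest Eomes signal was 16.4 at E/MB, 36.6 at EHF and 23.5 at E8.25, so 0 of 8 cells were detected at each stage, which allows a share of up to 36.9% (exact interval) at each. LS/0B knockout cells also spread widely, from 1.0 to 5173 with 12 of 20 detected. At E/MB the knockout cells reached no more than 30.2, and 0 of 12 were detected (up to 26.5%). The 4 E/MB Blimp1+ Hoxb1+ cells read 94.1, 297, 7.94 and 12.8, of which 1 was detected. Posterior mesoderm held 1 detected cell of 10, at 471. A second Eomes probe set gave the same order of detection, with 7 of 8 PS epiblast cells, 6 of 7 E/MS precursors, 8 of 17 LS/0B precursors, 12 of 20 LS/0B knockout cells and 0 of 8 PGCs at each stage.

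Mixl1, a homeodomain factor of the streak that shapes mesoderm and endoderm, was low before the streak, high in streak-stage cells and mesoderm, and low again in PGCs. PS epiblast signals ran from 20.2 to 493 (median 97.1; 3 of 8 detected). E/MS precursors ran from 23.5 to 4823 (median 2134; 6 of 7) and LS/0B precursors from 11 to 4868 (median 969; 16 of 17). In PGCs 3 of 8 cells were detected at E/MB (highest 241), 2 of 8 at EHF (highest 198) and 0 of 8 at E8.25 (highest 42.5). All 10 posterior mesoderm cells were detected, between 201 and 2253. The 4 E/MB Blimp1+ Hoxb1+ cells read 501, 1767, 1156 and 778, all above the highest E/MB PGC. The 4 EHF cells of that kind read 2479, 1212, 84.0 and 256, and 3 were detected. Knockout cells ran from 9.24 to 4476 at LS/0B (16 of 20) and from 20.9 to 1125 at E/MB (9 of 12).

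Lhx1, a LIM homeodomain factor of the streak, node and anterior mesendoderm, was detected in 29 cells, most of them precursors or LS/0B knockout cells. PS epiblast cells all read 1.0. E/MS precursors ran from 1.0 to 3379 (median 852; 5 of 7 detected), LS/0B precursors from 1.0 to 1483 (median 42.9; 8 of 17) and LS/0B knockout cells from 1.0 to 2560 (median 124; 11 of 20). At later stages it was detected in 1 of 8 E/MB PGCs (342), 1 of 4 E/MB Blimp1+ Hoxb1+ cells (220), 1 of 12 E/MB knockout cells (289) and 2 of 10 posterior mesoderm cells (376 and 640). It was detected in 0 of 8 PGCs at EHF and E8.25 and in 0 of 4 EHF Blimp1+ Hoxb1+ cells. A second Lhx1 probe set was detected in fewer cells: 3 of 7 E/MS precursors, 5 of 17 LS/0B precursors and 9 of 20 LS/0B knockout cells. At E/MB it was detected in 0 of 8 PGCs, 0 of 4 Blimp1+ Hoxb1+ cells, 1 of 12 knockout cells and 1 of 10 posterior mesoderm cells.

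Mesp1, a basic helix-loop-helix factor of nascent mesoderm that marks precursors of the heart and extraembryonic mesoderm, was the most widely detected member after Evx1, in 87 cells. In PS epiblast it was detected in 1 of 8 cells, at 200, and the other cells read 77.3 to 93.5. In E/MS precursors all 7 cells were detected, from 186 to 7274 (median 5306). LS/0B precursors ran from 90.2 to 7755 (median 2868; 16 of 17). In E/MB PGCs 7 of 8 cells read 89.3 to 498 and 1 cell read 4155, so the mean of 8.14 ± 1.83 (log2, SD, n = 8 cells) leans on that cell. EHF PGCs ran from 71.0 to 468 (3 of 8) and E8.25 PGCs from 128 to 472 (6 of 8), and the medians of 102 and 149 lay near the detection limits of 90.3 to 150 in these cells.

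In posterior mesoderm, Blimp1+ Hoxb1+ and knockout cells Mesp1 was detected in all but 2 cells. Posterior mesoderm cells read 2655 to 5529 (11.95 ± 0.37 log2, SD, n = 10 cells), the smallest SD of the 11 groups for this gene. The 4 E/MB Blimp1+ Hoxb1+ cells read 2570, 3432, 1636 and 4199, and the 4 EHF cells 3073, 1736, 1500 and 2744. Knockout cells ran from 56.2 to 7098 at LS/0B (19 of 20) and from 95.9 to 3490 at E/MB (11 of 12). The E/MB PGC at 4155 lay above all E/MB knockout cells, 2 of which read 249 and 95.9.

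Mesp2, the paralog that patterns somites, was sparse. It was detected in 15 cells: 2 of 7 E/MS precursors (118 and 552), 5 of 17 LS/0B precursors (228 to 797), 7 of 20 LS/0B knockout cells (highest 338) and 1 of 10 posterior mesoderm cells (177). No PGC reached more than 75.8. All 15 Mesp2 cells also had Mesp1 and Eomes, and 14 had Mixl1. Under a stricter limit, the 99th percentile of the background probe sets, Mesp2 remained detected in 5 cells. These were 4 LS/0B precursors and 1 E/MS precursor, with 0 of 20 LS/0B knockout cells.

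Msgn1, a basic helix-loop-helix factor of the presomitic mesoderm, was mostly a gene of posterior mesoderm here: 8 of 10 cells were detected, between 382 and 1164, and the other 2 read 1.0 and 22.8. It was detected in 10 other cells, of which 3 were E/MB knockout cells (135, 690 and 954) and 3 LS/0B knockout cells (137, 167 and 192). Among wild-type PGCs and precursors 1 E/MB PGC was detected, at 147, the same cell that read 4155 for Mesp1. The Blimp1+ Hoxb1+ cells gave 235 in 1 E/MB cell and 132 and 229 in 2 EHF cells. Under the stricter limit Msgn1 remained detected in 10 cells, 8 of posterior mesoderm and 2 E/MB knockout cells.

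Tbx6, a T-box factor that directs streak cells to paraxial mesoderm, was detected in 49 cells. Posterior mesoderm had 9 of 10 cells (highest 1070, median 274), LS/0B knockout 13 of 20 (highest 844), LS/0B precursors 10 of 17 (highest 510) and E/MS precursors 4 of 7 (highest 376). PGCs had 2 of 8 at E/MB (598 and 721) and 1 of 8 at EHF (148) and at E8.25 (130). In E/MB knockout cells it was detected in 4 of 12 (highest 823), and in PS epiblast in 1 of 8 (392). The 4 EHF Blimp1+ Hoxb1+ cells read 409, 136, 3.26 and 652, against 5.22, 152, 4.66 and 5.59 in the E/MB cells. Tbx6 lay near the limit in many of these cells: under the stricter limit it remained detected in 27.

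Evx1, a homeodomain factor of the posterior streak, was detected in 104 cells, missing only in 2 PS epiblast cells at 1.0. The other PS epiblast cells read 152 to 1653. From the E/MS stage on it was present in every cell, with medians of 1629 in E/MS precursors and 1957 in LS/0B precursors. Along the PGC stages it was lower at each step, from 10.27 ± 0.85 at E/MB to 9.33 ± 0.92 at EHF and 8.64 ± 0.56 at E8.25 (log2, SD, n = 8 cells each), and the E8.25 cells read 180 to 723 while the E/MB cells read 511 to 2421. The ranges overlapped between neighbouring stages. Outside the line it was 11.02 ± 0.53 in posterior mesoderm (n = 10 cells) and 10.71 ± 0.72 in E/MB knockout cells (n = 12 cells).

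Nkx1-2, a homeodomain factor of the caudal epiblast, had the opposite course to Eomes. All PS epiblast cells (highest 12.2) and E/MS precursors (highest 9.94) were undetected. LS/0B precursors ran from 1.78 to 1547 (median 113; 9 of 17 detected). PGCs ran from 17.5 to 2154 at E/MB (median 489; 6 of 8), from 18 to 2316 at EHF (median 1546; 7 of 8) and from 81.7 to 2895 at E8.25 (median 1071; 7 of 8). The 4 E/MB Blimp1+ Hoxb1+ cells read 2181, 4190, 736 and 663, and the 4 EHF cells 1291, 1826, 4655 and 7.1.

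All 12 E/MB knockout cells had high Nkx1-2, between 1515 and 3109 (11.13 ± 0.37 log2, SD), above each of the 10 posterior mesoderm cells, which ran from 1.04 to 1398 (7 detected). At LS/0B 8 of 20 knockout cells were detected (highest 2724). These values come from 1 of 3 Nkx1-2 probe sets. Another was detected in 2 LS/0B precursors, 1 LS/0B knockout cell and 2 posterior mesoderm cells, and the third in 0 cells of any group, so a level averaged over all 3 is lower: the difference from mesoderm given further on as 2.79 was then 0.82.

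Ordered by mean log2 signal, the groups formed 90 neighbouring steps, 10 per gene, and in 3 of them the difference exceeded the larger SD of the pair. These were Mesp1 between E/MB knockout cells and E/MB PGCs (2.46 against an SD of 1.83), Msgn1 between posterior mesoderm and E/MB knockout cells (1.9 against 1.45) and Evx1 between E/MB and EHF PGCs (0.94 against 0.92). The order ran from posterior mesoderm to PS epiblast for Mesp1 and Evx1. It ran from E/MS precursors to E8.25 PGCs for Mixl1, and Eomes and Lhx1 also began with E/MS precursors. Msgn1 and Tbx6 began with posterior mesoderm, Mesp2 with LS/0B precursors and Nkx1-2 with E/MB knockout cells. Groups at the floor have no order among themselves.

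**Figure D2:**
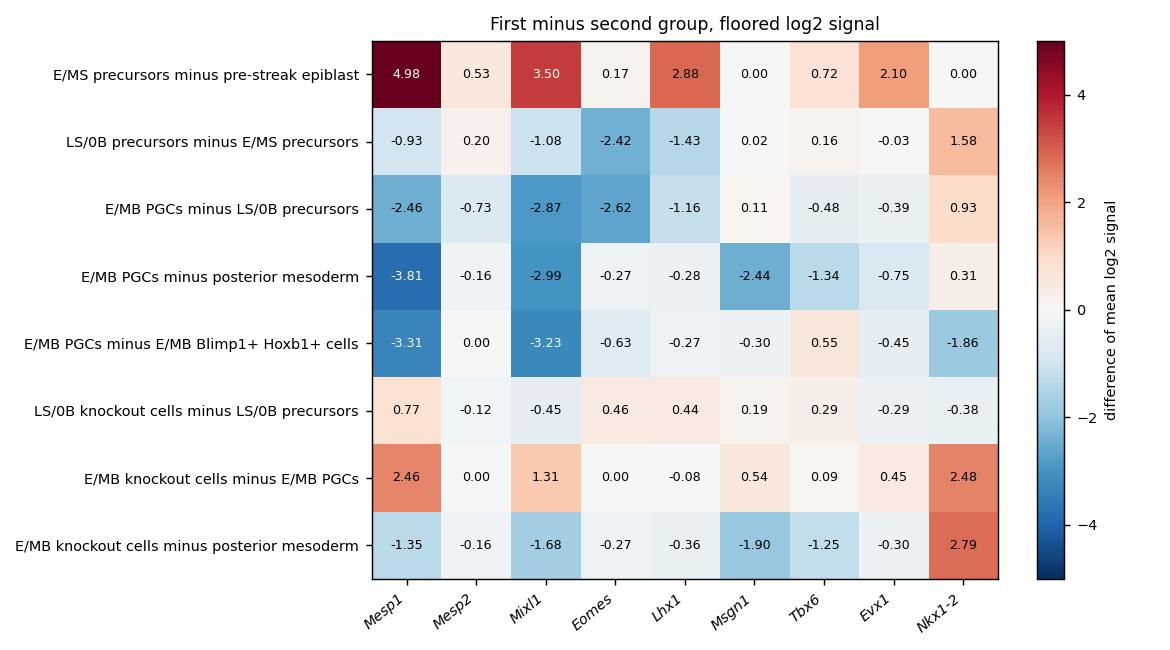
Difference of mean floored log2 signal (first minus second group, colour and printed value) for each of the 9 genes (columns) in the 8 comparisons (rows). The largest positive value is Mesp1 in E/MS precursors against pre-streak epiblast (4.98), and the row of LS/0B knockout cells against LS/0B precursors stays under 1 in size for all 9.

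The first comparison asked what separates precursors in the early streak from epiblast before it. Mesp1 was higher by 4.98, from 6.56 ± 0.45 in 8 PS epiblast cells to 11.53 ± 1.95 in 7 E/MS precursors (log2, SD). Mixl1 was higher by 3.5, Lhx1 by 2.88 and Evx1 by 2.1, while Eomes differed by 0.17 and was already present. Since no PS epiblast cell had Lhx1, its signal in E/MS precursors was at least 1.16-fold higher, measured against the detection limits. In all, 4 of 9 members were higher and 0 lower, beside 2.67% and 2.94% of all genes, and the members' median difference was 0.72 beside 0 for all genes. Scaled to the lys spike-in control, those shares of all genes were 5.9% and 1.5%. Tbx6 differed by 0.72, and by 1.01 without PS epiblast replicate 2. For Mesp1, Mixl1 and Lhx1 the cells of the groups overlapped through E/MS cells with little signal. All 8 epiblast cells had Xist and none of the 7 precursors did; the part of this in the differences was not tested.

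Among related genes, 1 of 10 streak signals was lower, Nodal, the ligand that induces the streak, by 2.66 (7.22 ± 1.86 against 9.88 ± 0.65). In the posterior growth list 5 of 10 were higher and 0 lower, with Rspo3, a Wnt enhancer, higher by 3.0 and Sp8, a zinc finger factor, by 1.02. In the paraxial mesoderm list 2 of 10 were higher and 0 lower. Of 9 measured mesendoderm and node genes 1 was lower, Otx2, an anterior homeodomain factor (-2.01).

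From the E/MS to the LS/0B stage the early streak factors were lower and the caudal factor appeared. Eomes differed by -2.42 (8.75 ± 2.56 in 17 cells against 11.18 ± 2.19 in 7), Lhx1 by -1.43 and Mixl1 by -1.08. Nkx1-2 was higher by 1.58; its bound against the detection limits was under 1, so no fold is given. That made 1 member higher and 3 lower of 9, beside 1.48% and 1.47% of all genes (0.7% and 3.9% scaled to lys), with a median of -0.03 over the members. Single cells weighed on these values: without E/MS replicate 5, which read 186 for Mesp1 and 23.5 for Mixl1, Mixl1 differed by -1.82 and Mesp1 by -1.6 instead of -0.93. Mesp1 also passed 1, at -1.0 to -1.12, without E/MS replicate 6 or any 1 of LS/0B replicates 1, 3, 4, 5, 7, 8, 14 and 23. Mixl1 was under 1 in size, at -0.98 to -0.8, without any 1 of E/MS replicates 1, 2 and 3 or LS/0B replicates 16, 18, 21, 22 and 24. Nkx1-2 differed by 0.58 with the mean of its probe sets and by 0.69 with medians over cells. Without E/MS replicate 2 the difference in Lhx1 was -0.98, and with the mean of its probe sets it was -0.91. No E/MS precursor had Xist and 8 of 17 LS/0B precursors did; over cells without Xist Eomes differed by -1.22, Mixl1 by -0.35, Mesp1 by -0.27, Lhx1 by -1.78 and Nkx1-2 by 1.2.

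Over the same step Tdgf1, the Nodal co-receptor Cripto, differed by -2.41 (14 of 17 against 7 of 7 cells), and Bmp4, the BMP ligand that induces PGC fate, by 1.98 (15 of 17 against 2 of 7). Of the streak signals 1 of 10 was higher and 2 lower. Cdx2, a caudal homeodomain factor, was the 1 of 10 posterior growth genes that was higher (2.22; 14 of 17 against 1 of 7 cells). In the paraxial mesoderm list 0 of 10 passed in either direction, and 1 of 9 mesendoderm and node genes was higher.

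In the step to E/MB PGCs 4 of 9 members were lower and 0 higher, beside 2.66% and 2.96% of all genes (6.0% and 1.2% scaled to lys). The PGCs were chosen by stella and the LS/0B precursors were not. Dppa3 was detected in 8 of 17 precursors and 8 of 8 PGCs, and Hoxb1 in 11 of 17 and 0 of 8. Among the precursors, Eomes was detected in 2 of 8 cells with Dppa3 and 8 of 9 without. Stage and choice of cells changed together here, and the part of each was not tested. Mixl1 differed by -2.87, Eomes by -2.62, Mesp1 by -2.46 and Lhx1 by -1.16, and the members' median was -0.73. Eomes was at least 1.78-fold lower in PGCs, measured against their detection limits. For Lhx1 the value was -0.97 without LS/0B replicate 14, -0.81 over cells without Xist and 0.0 with medians over cells. Nkx1-2 went the other way, by 0.93, which became 1.29 without E/MB PGC replicate 2 or replicate 4, 1.31 over cells without Xist, and 1.02 to 1.11 without PGC replicate 8 or any 1 of LS/0B replicates 6, 16, 18, 19, 20 and 24. Evx1 differed by -0.39 and Tbx6 by -0.48.

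Beside them, Tdgf1 differed by -3.7 (0 of 8 against 14 of 17 cells). Gdf3, a Nodal-related ligand, differed by 1.24, Cdx2 by 1.14 and Sox17, an endoderm factor also active in germ cells, by 2.74. The posterior growth list had 2 of 10 higher and 2 lower, the streak signals 1 and 1 of 10, the paraxial mesoderm list 0 of 10 and the mesendoderm and node list 1 of 9 higher.

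Against posterior mesoderm of the same stage, E/MB PGCs were lower in 4 of 9 members and higher in 0, beside 3.62% and 8.43% of all genes. Mesp1 differed by -3.81, Mixl1 by -2.99, Msgn1 by -2.44 and Tbx6 by -1.34, while Nkx1-2 differed by 0.31 and Eomes by -0.27. The members' median was -0.75. The 10 mesoderm arrays had the higher hybridisation controls given above, and their part was not tested; scaled to lys, the shares of all genes were 9.6% lower and 3.9% higher, and with quantile normalization 5.2% and 6.7%. All 4 members stayed lower by at least 1 under both scalings.

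The same comparison separated related genes. Dll1, a Notch ligand of the presomitic mesoderm, differed by -2.57 (3 of 8 against 9 of 10 cells), Cdx1 by -2.46 and Sp5, a Wnt target, by -2.24. On the PGC side stood Sox17 (4.13), Sp8 (2.7), Gdf3 (1.91), Fgf8 (1.08) and Wnt5a (1.07). The paraxial mesoderm list had 2 of 10 lower and 0 higher, the posterior growth list 4 lower and 2 higher of 10, the streak signals 3 higher and 1 lower of 10, and the mesendoderm and node list 1 of 9 higher.

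Against E/MB Blimp1+ Hoxb1+ cells, which share Blimp1 and Oct4 with the PGCs, E/MB PGCs were lower in 3 of 9 members and higher in 0, beside 5.52% and 5.21% of all genes. Mesp1 differed by -3.31 (8.14 ± 1.83 in 8 cells against 11.45 ± 0.59 in 4), Mixl1 by -3.23 and Nkx1-2 by -1.86, and the members' median was -0.45. With the mean of its probe sets Nkx1-2 differed by -0.61. Mixl1 was the 1 of 9 whose cells did not overlap. The share of all genes without overlap was not counted, so this says nothing particular about the members. The 4 cells make this the thinnest of the comparisons. Of related genes, Bmp4 was lower (-1.8), as was Cyp26a1, which breaks down retinoic acid (-2.4), and Sox17 (3.76), Sp8 (1.57), Gdf3 (1.54) and Fgf8 (1.09) were higher. The streak signals had 3 of 10 higher and 2 lower, the posterior growth list 1 higher and 2 lower of 10, the paraxial mesoderm list 0 of 10 and the mesendoderm and node list 1 of 9 higher.

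The next comparisons set Blimp1 knockout cells against wild-type cells. In LS/0B knockout cells 0 of 9 members were higher or lower by 1, beside 1.06% and 0.39% of all genes, so that count says nothing particular about the members. Their median was 0.19. The widest difference was Mesp1, 0.77 (11.36 ± 1.6 in 20 cells against 10.6 ± 2.06 in 17), which was 1.04 without knockout replicate 16, a cell in which Evx1 was the 1 member detected. Eomes differed by 0.46, Mixl1 by -0.45 and Nkx1-2 by -0.38. No knockout cell had Xist, against 8 of 17 wild-type cells, and the values moved when the wild-type cells with Xist were left out: Eomes differed by -0.74, Mixl1 by -1.18 and Mesp1 by 0.1. With medians over cells Eomes differed by 2.07. The direction for Eomes at LS/0B therefore depends on which cells and which average are used. No gene of the streak signal, posterior growth or paraxial mesoderm lists passed 1 in either direction, and 1 of 9 mesendoderm and node genes was lower.

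At E/MB knockout cells were set against PGCs of the stage. The PGCs were chosen by stella and the knockout cells were not. Dppa3 was detected in 4 of 12 knockout cells and 8 of 8 PGCs, and Hoxb1 in 12 of 12 and 0 of 8. Genotype and choice of cells thus differed together, and the part of each was not tested. In wild-type E/MB Blimp1+ Hoxb1+ cells mean log2 signals were 11.45 for Mesp1, 9.88 for Mixl1 and 10.51 for Nkx1-2. In the knockout cells they were 10.6, 7.96 and 11.13. Against the PGCs, Nkx1-2 was higher by 2.48, Mesp1 by 2.46 and Mixl1 by 1.31 in knockout cells. That made 3 of 9 members higher and 0 lower, beside 4.0% and 3.61% of all genes. The members' median was 0.45. Scaled to lys, the median of all genes moved by 0.12 and the shares were 12.1% and 1.2%, while the 3 members stayed higher by at least 1. With the mean of its probe sets Nkx1-2 was higher by 0.82. Eomes was detected in 0 of 12 and 0 of 8 cells, and Evx1 differed by 0.45 (1.13 scaled to lys). Of markers of other cell types, 3 of 5 allantois and posterior mesoderm markers were higher by at least 1. So were 1 of 4 trophoblast, 1 of 7 blood and endothelium and 0 of 6 visceral endoderm markers. In each of these lists 0 were lower. Apoa1 was detected in 10 of 12 knockout cells and 1 of 8 PGCs, Plac1 in 9 and 4, and Etv2 in 7 and 0. Isl1 was detected in 10 and 2 and Foxf1 in 6 and 0, while Esrrb was detected in 0 and 2 and Amn in 0 and 1. The part of these markers in the differences was not tested. The knockout cells had less Sox17 (-3.44), Gdf3 (-1.94), Sp8 (-1.75) and Fgf8 (-1.15) and more Bmp4 (1.54). The posterior growth list had 4 of 10 higher and 1 lower, the streak signals 1 higher and 3 lower of 10, the paraxial mesoderm list 0 of 10 and the mesendoderm and node list 1 of 9 lower.

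Set against posterior mesoderm, the same knockout cells were lower in 4 of 9 members, Msgn1 (-1.9), Mixl1 (-1.68), Mesp1 (-1.35) and Tbx6 (-1.25), and higher in 1, Nkx1-2 (2.79), beside 1.29% and 6.89% of all genes (2.7% and 5.4% with quantile normalization). The members' median was -0.36. Here too the mesoderm arrays had the higher hybridisation controls, 10.77 to 11.7 against 9.05 to 10.03 in the knockout cells, and their part was not tested. Scaled to lys, 1.3% of all genes were lower and 8.3% higher. Nkx1-2 was the 1 member whose cells did not overlap, and the share of all genes without overlap was not counted. Mesp1 was -0.99 without knockout replicate 11 and -0.67 with medians over cells. Dll1 differed by -1.89 and Wnt5a by 1.56; 2 of 10 paraxial mesoderm genes were lower, 1 of 10 posterior growth genes was higher, 1 of 10 streak signals was lower, and 0 of 9 mesendoderm and node genes passed. This comparison and the one before share the 12 knockout cells, and this one and that of PGCs with mesoderm share the 10 mesoderm cells.

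**Figure D3:**
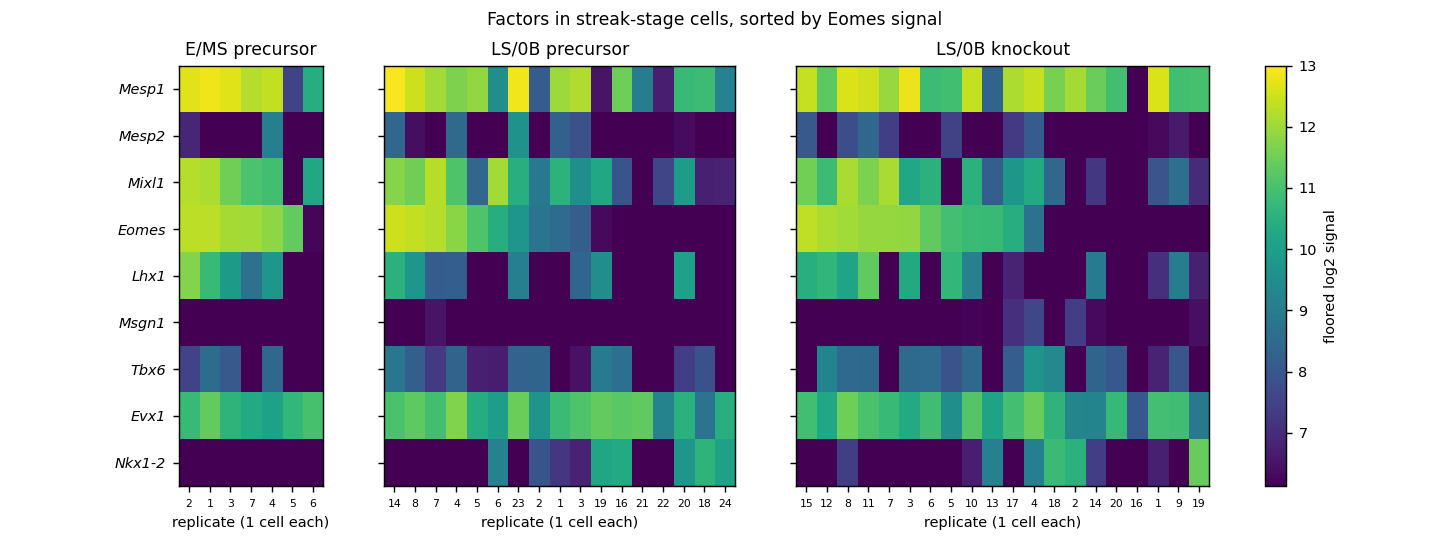
Floored log2 signal (colour) of the 9 genes (rows) in each E/MS precursor, LS/0B precursor and LS/0B knockout cell (columns, replicate numbers), sorted by Eomes from high to low. Nkx1-2 is dark in all 7 E/MS precursors and bright mainly at the right, where Eomes is at the floor.

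LS/0B precursors were mixed at the level of single cells. Eomes was detected in 10 of 11 cells with Hoxb1, a posterior Hox gene, and in 0 of 6 without it. It was detected in 2 of 8 cells with Dppa3 and 8 of 9 without, and in 4 of 11 with Prdm14, a germ cell factor, and 6 of 6 without. Pearson's r of log2 signals over the 17 cells was 0.79 with Hoxb1, -0.77 with Dppa3, -0.82 with Prdm14 and -0.81 with Prdm1. Nkx1-2 leaned the other way, detected in 7 of 8 cells with Dppa3 and 2 of 9 without (r = 0.74). Hoxb1 and Dppa3 were not used to choose these cells, while Prdm1 was. Prdm14 was taken up after its values were seen.

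Eomes and Nkx1-2 were anticorrelated, with r = -0.63 over the 17 precursors, -0.46 over the 20 LS/0B knockout cells and -0.63 over all cells. Among the 17 precursors 4 cells had both, 6 Eomes alone, 5 Nkx1-2 alone and 2 neither. Among the 20 knockout cells these counts were 4, 8, 4 and 4. Mixl1 went with Eomes in both, with r = 0.76 and 0.78. All of these are descriptions over cells that share an array each, a stage and a choice of cells.

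The split moved with Xist. The 9 precursors without Xist, replicates 1 to 8 and 16, all had Hoxb1, and 8 of them had Eomes. The 8 with Xist, replicates 14 and 18 to 24, had Hoxb1 in 2 and Eomes in the same 2. Within cells without Xist Eomes correlated with Prdm14 at -0.61, with Dppa3 at -0.73 and with Hoxb1 at 0.22. Within cells with Xist Nkx1-2 was detected in 4 of 5 cells with Dppa3 and 0 of 3 without. The part of Xist status, or of any embryo behind the replicate numbers, in the relation with Hoxb1 was not tested.

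In LS/0B knockout cells Dppa3 was detected in 0 of 20. Eomes was detected in 10 of 16 with Hoxb1 and 2 of 4 without (r = 0.13), and in 5 of 11 with Prdm14 and 7 of 9 without (r = -0.28). In E/MS precursors Mesp1 and Mixl1 had r = 0.97 over 7 cells, among which replicate 5 was lowest for both (186 and 23.5). Over all cells r was 0.68. It was 0.42 in LS/0B precursors and 0.51 in LS/0B knockout cells. Among the other groups where r was taken, it ran from -0.16 in posterior mesoderm to 0.54 in the 4 EHF Blimp1+ Hoxb1+ cells.

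**Figure D4:**
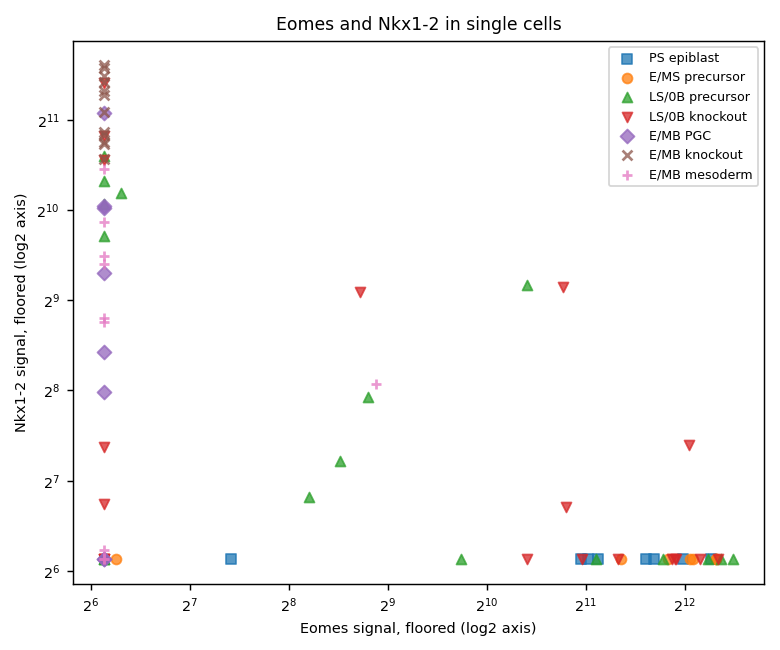
Eomes signal (x axis) against Nkx1-2 signal (y axis), both floored and on log2 scales, 1 point per cell in 7 groups. Most cells lie along one axis or the other, and over the 11 groups 10 cells were detected for both.

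**Figure D5:**
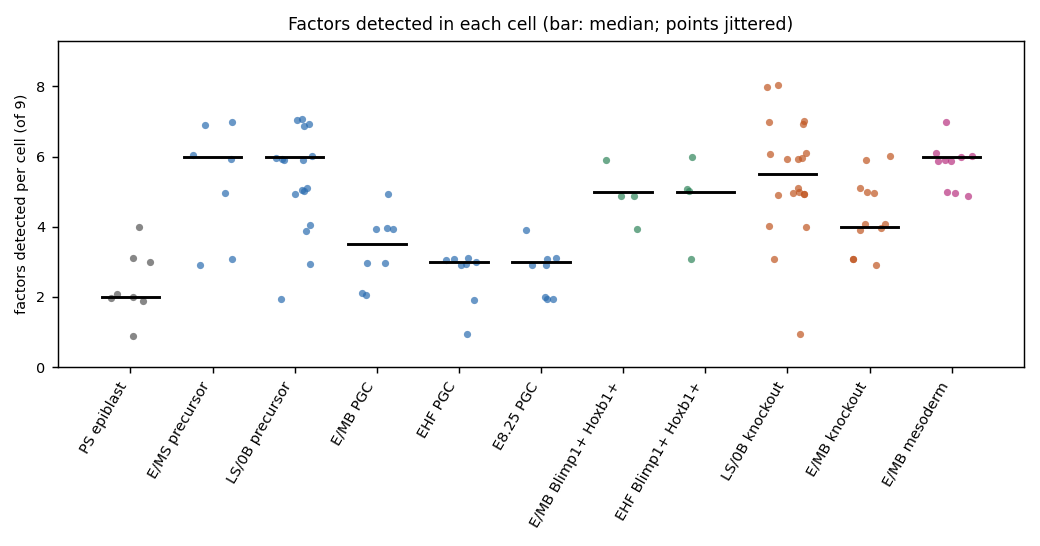
Number of the 9 genes detected in each cell (y axis) by group (x axis), with jittered points and a bar at the median. PS epiblast has a median of 2, E/MS and LS/0B precursors and posterior mesoderm 6, and the PGC stages 3.5, 3 and 3.

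Counted per cell, a median of 2 members was detected in PS epiblast (range 1 to 4), 6 in E/MS precursors (3 to 7) and 6 in LS/0B precursors (2 to 7). PGCs had 3.5 at E/MB (2 to 5) and 3 at EHF (1 to 3) and E8.25 (2 to 4), with Evx1 present in each and Nkx1-2 in most. Posterior mesoderm had 6 (5 to 7), both Blimp1+ Hoxb1+ groups 5, LS/0B knockout cells 5.5 (1 to 8) and E/MB knockout cells 4 (3 to 6). The PGC and mesoderm ranges at E/MB met at 5.

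The genes whose floored log2 signal ran closest to each member over all cells, among 10251 genes detected in at least 15 cells, are given as a description. Cells of a group share its choice, stage and genotype, so these values follow group differences. Closest to Mesp1 were Hoxb1 (r = 0.7), Snai1, a repressor of E-cadherin at the streak (0.69), and Pdgfra, a growth factor receptor of early mesoderm (0.68). Hoxb1 was used to choose 3 of the groups. Closest to Mesp2 were Wnt2 (0.6), Susd5 (0.54) and Pth1r (0.53), and to Mixl1 Efna3, an ephrin ligand (0.71), Snai1 (0.69) and Pth1r (0.67).

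Eomes had the closest partner of any member, Tdgf1 (r = 0.87), followed by the Wnt receptor Fzd7 (0.78) and Zic5 (0.68). Tdgf1 was detected in 8 of 8 PS epiblast cells, 7 of 7 E/MS and 14 of 17 LS/0B precursors, and in 0, 1 and 2 of 8 PGCs along the stages. Lhx1 was closest to Gata4 (0.69), Six2 (0.66) and Gas1 (0.64). Tbx6 was closest to Snai1 (0.55), the Notch ligand Dll3 (0.54) and Efna3 (0.46). Msgn1 was closest to Siglece (0.63), Cby3 (0.61) and Dnajb5 (0.55), and Evx1 to Hoxb1 (0.53), Prkd1 (0.53) and Wnt5b (0.51).

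Nkx1-2 was closest to Cdx2 (0.7), then Oat, an enzyme of ornithine metabolism (0.63), and Limch1 (0.61). Cdx2 was detected in 0 of 8 PS epiblast cells, 1 of 7 E/MS precursors, 14 of 17 LS/0B precursors and every cell of the 7 groups from E/MB on, the knockout and mesoderm cells included. In LS/0B knockout cells it was detected in 12 of 20. Snai1, listed for 3 members, was detected in 0 of 8 PGCs at each stage and in 9 of 10 posterior mesoderm cells.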

How the data were processed

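Single cells were picked at random from dissociated embryo fragments, lysed and their cDNA amplified by PCR, per the labels' protocols, so rare transcripts can be lost by chance. The authors deposited linear intensity values for every probe set, and MAS5 is named per the submitters' processing notes. Its release, the scaling target and how low values were handled: not given in the sources used here. Of the values, 15.3% stood at 1 and 1 was missing; 0 pairs of cells were identical.

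The platform annotation pairs 34945 of 45101 probe sets with 1 symbol, 932 with several and 9160 with none; only the first were used. The probe set with the highest mean floored log2 signal stood for a gene. The floor of 70.2 is the median, over all cells, of the 90th percentile of the 126 background probe sets. Differences are of group means of floored log2 signal. An at-least fold is given where the dimmer group had 0 detected cells, as the brighter group's mean log2 signal, not floored, against the mean of the higher of each dim cell's limit and own signal. Precision is limited by the number of arrays. The code was tested on simulated data. Python 3.11.15, numpy 2.4.6, pandas 2.3.3, scipy 1.17.1 and matplotlib 3.10.9 were used.

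Named were the 9 members, the genes used to choose cells, Xist, up to 3 genes per direction of the streak signal, posterior growth, paraxial mesoderm, and mesendoderm and node lists that passed 1 log2 unit and were detected in 75% of the higher group's cells, and the 3 closest genes of each member. Prdm14 and the other marker genes come from lists used to check cell types. The members and lists were chosen with earlier results of these data known. Symbols and upstream sequences were matched to RefSeq (GRCm38.p6), with an upstream window for 8 of 9 members. Alternatives were no floor, the mean of all probe sets, quantile normalization, scaling to the lys control, medians over cells, cells without Xist, leaving out each cell, and the 99th percentile as limit. The split of LS/0B precursors by Xist was added after the data were seen.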

Additional observations from a re-analysis of the deposited data

Results flagged for a closer look

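The cells listed here stood apart from the other cells of their group, with a gap to the nearest cell larger than Dixon's 95% limit for a group of that size. Of 52 sets of values tested, 19 had such a cell, where chance gives about 1 in 20; values raised to the floor of 6.13 tie with each other, which makes such gaps more frequent. Values are floored log2 signals. No explanation was tested.

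Mesp1 read 7.64 in PS epiblast replicate 8, 12.02 in E/MB PGC replicate 4 and 8.87 in EHF PGC replicate 5. The E/MB PGC at 12.02 was above 8.96 of the next PGC, and the same cell stood apart for Msgn1, at 7.2. Mesp2 read 9.11 in E/MS precursor replicate 4, 6.24 in E8.25 PGC replicate 2 and 7.47 in posterior mesoderm replicate 7. That mesoderm cell also stood apart for Eomes, at 8.88, with every other mesoderm cell at the floor.

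On the low side stood Mixl1 in E/MS precursor replicate 5 (6.13), Eomes in PS epiblast replicate 4 (7.41) and E/MS precursor replicate 6 (6.26), and Nkx1-2 in EHF PGC replicate 7 (6.13). Lhx1 read 8.42 in E/MB PGC replicate 5, and Msgn1 7.88 in E/MB Blimp1+ Hoxb1+ replicate 1. Tbx6 read 8.61 in PS epiblast replicate 2, 7.21 in EHF PGC replicate 4, 7.02 in E8.25 PGC replicate 5 and 7.25 in E/MB Blimp1+ Hoxb1+ replicate 2. Evx1 read 11.1 in E/MB Blimp1+ Hoxb1+ replicate 4.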

How the results depend on the processing

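No paired analysis was possible because the labels' numbers count cells within a group and name no embryo, and no test was made. Of the 27 member differences of at least 1 log2 unit, 27 stayed past 1 with no floor, with quantile normalization and scaled to the lys control, 24 with medians over cells, 22 with the mean of all probe sets, and 9 of 11 over cells without Xist; none of them turned direction, though Lhx1 between E/MB PGCs and LS/0B precursors was 0.0 with medians. The 99th percentile as detection limit moved 21 counts of detected cells and left 78. The counts of members moved as follows. For LS/0B against E/MS precursors, 1 higher became 0 with the mean of all probe sets and with medians, and 3 lower became 1 at the lowest and 4 at the highest when each cell was left out. For E/MB PGCs against LS/0B precursors, 0 higher became 1 with no floor, with medians, without Xist cells and at the highest without 1 cell. For E/MB PGCs against E/MB Blimp1+ Hoxb1+ cells, no floor gave 1 higher and 6 lower. For LS/0B knockout cells against precursors, 0 higher became 1 with no floor, with medians and at the highest without 1 cell, and 0 lower became 1 without Xist cells. For E/MB knockout cells against mesoderm, 1 higher became 0 with the mean of all probe sets, where Nkx1-2 was 0.82. The causes were not tested. Over all genes the shares past 1 ran from 3.7% to 20.6% with no floor and from 0.2% to 4.0% with the mean of all probe sets. Signals near the detection limit leave Tbx6, Mesp2, Mixl1 and Mesp1 in PGCs uncertain, and Msgn1 in most of the cells outside posterior mesoderm that had it.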
